A study of Mus musculus with 14 samples.

Results

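Igtp, Irf1, Stat2, Bst2 and Ifitm3 are interferon response genes that were each measured by 1 cDNA spot in the spleen RNA of AcB61 and AcB55 mice. The spots were taken as those whose only gene symbol in the platform annotation is 1 of these 5 names, which gave 1 spot per gene, 5 of the 14612 spots with a value and 5 of the 6288 genes named this way. There were 8 arrays of AcB61 spleen and 6 of AcB55 spleen, each hybridised together with A/J spleen as the second sample. Both strains are recombinant congenic, with stretches of the C57BL/6 genome placed on that of A/J, and the study asked about resistance to malaria. The labels give neither infection, treatment, age nor sex of the mice, nor whether arrays shared an animal. Each value is a log2 ratio of the strain to A/J, so 0 means the A/J level, and the direction is likely strain over A/J because every label names the strain first. Which sample carried which dye and the log base are not stated, and base 2 was taken. A ratio carries no absolute level, so the spleen label could not be checked against markers of the tissue.

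Interferons are cytokines that cells release on infection. Type I interferons act through a complex that holds Stat2 and Irf9 and binds the interferon-stimulated response element, and interferon gamma acts on gamma-activated sites. The genes switched on this way include transcription factors that extend the response, membrane proteins that hinder viruses, and GTPases that attack vacuoles holding parasites or bacteria. In the spleen, macrophages, dendritic cells and lymphocytes all respond.

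Promoter sequence was available for all 5 genes in RefSeq (GRCm38.p6), which is the C57BL/6J sequence and not that of A/J or of the 2 recombinant strains. The windows cover 250 bases before to 50 after the start of each gene. The windows were searched on both strands for GAAA followed after any 2 bases by GAAA, the interferon-stimulated response element. They were also searched for TTCNNNGAA, the gamma-activated site, which reads the same on both strands. The first was found in 4 of the 5 genes, the second in 4 and both in 3. Of 162 other interferon pathway genes with a window, 51 held the first and 29 the second in at least 1 window. Among all 32851 RefSeq windows of this length, 3.44% held the first, 8.3% the second and 0.454% both. The stretches around these matches are shown because each of the 5 genes has at least 1 match, with capitals marking the matches. Each is 5′ to 3′ on the strand of its gene.
Igtp, chr11:58199306-58199555, plus strand: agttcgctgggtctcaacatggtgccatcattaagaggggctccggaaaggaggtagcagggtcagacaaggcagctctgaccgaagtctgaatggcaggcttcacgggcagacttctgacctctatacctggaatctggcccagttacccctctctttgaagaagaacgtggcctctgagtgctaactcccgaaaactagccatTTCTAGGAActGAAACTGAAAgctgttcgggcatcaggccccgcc
Irf1, chr11:53769899-53769958, plus strand: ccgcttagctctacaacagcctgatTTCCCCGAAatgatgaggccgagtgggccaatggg
Stat2, chr10:128270251-128270310, plus strand: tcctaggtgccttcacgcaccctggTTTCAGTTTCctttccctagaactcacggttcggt
Bst2, chr8:71537473-71537722, minus strand: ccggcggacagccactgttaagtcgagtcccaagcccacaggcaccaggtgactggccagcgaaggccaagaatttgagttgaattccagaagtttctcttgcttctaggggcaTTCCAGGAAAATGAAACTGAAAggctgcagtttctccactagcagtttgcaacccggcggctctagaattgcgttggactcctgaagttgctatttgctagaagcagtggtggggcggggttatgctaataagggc
Ifitm3, chr7:141010716-141010742, minus strand: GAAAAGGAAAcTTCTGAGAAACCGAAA

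In Igtp a gamma-activated site lies 2 bases before a response element, close to the gene start. The Bst2 capitals hold 2 response elements that share bases, and a gamma-activated site that shares bases with the first of them. The Ifitm3 stretch lies just after the gene start and holds 2 response elements, the second sharing bases with a gamma-activated site. Irf1 had the gamma-activated site alone, with 0 matches in a second window listed for it, and Stat2 had the response element alone, in reverse. A match describes the letters only, and binding was not measured here.

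**Figure D1:**
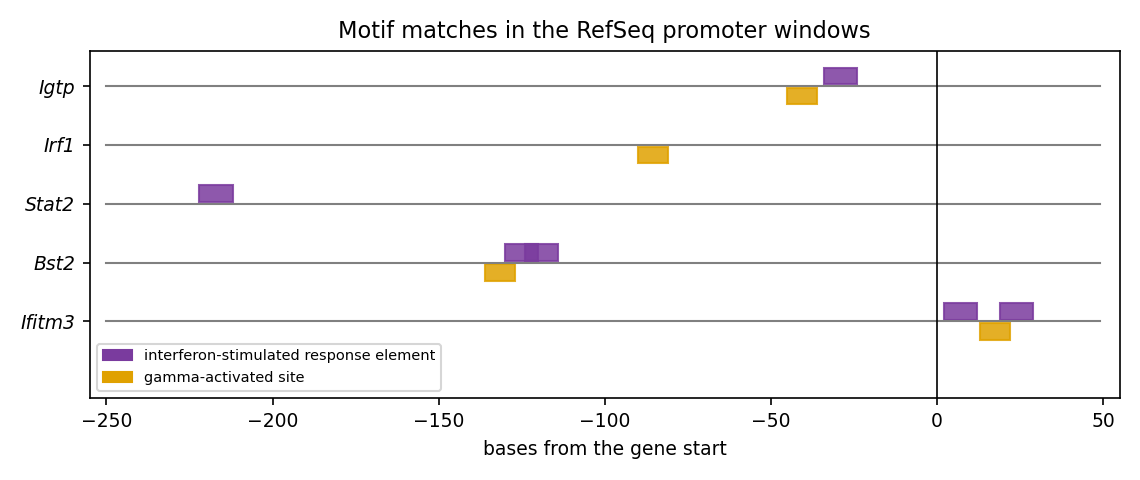
Positions of the matches in the promoter window of each gene (horizontal axis, bases from the gene start, with the start at 0), for the interferon-stimulated response element (purple, above the line) and the gamma-activated site (yellow, below the line). Stat2 has its only match farthest upstream, from -222 to -213, and Ifitm3 has its matches after the start, from 2 to 28.

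The arrays of 1 strain were not all alike, and sets of them were formed after the data were seen, from the correlation of their log2 ratios over all features. AcB61 replicates 3, 5 and 7 correlated with each other at 0.704 to 0.795 and replicates 2, 6 and 8 at 0.788 to 0.833. Arrays of the first set correlated with those of the second at -0.089 to 0.15, while replicates 1 and 4 stood between the sets, at 0.365 to 0.638. AcB55 replicates 1 and 2 stood closer to the AcB61 arrays than did the other 4, with correlations of 0.21 to 0.521 against -0.0047 to 0.266. The labels do not say what the sets are. The 5 genes and the counts of calls were also fitted without them, but the other genes named were not. In whole spleen, fewer cells of a type and less RNA per cell cannot be told apart.

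Igtp encodes an immunity-related GTPase, also called Irgm3, which interferon gamma induces and which helps protect cells against parasites in vacuoles. It was lower than A/J in AcB61 and higher than A/J in AcB55. Its log2 ratio had a lowest value of -0.92, a median of -0.43 and a highest value of -0.19 over the 8 AcB61 arrays, against 0.092, 0.35 and 0.52 over the 6 AcB55 arrays. Every AcB61 array lay below 0 and every AcB55 array above it, so the ranges did not overlap, as for 2.67% of all 13045 features tested (1.56% with AcB61 lower). The mean was -0.48 ± 0.28 in AcB61 (SD, n = 8), or 0.716 times the A/J level, with a limma adjusted p of 0.000197. In AcB55 it was 0.33 ± 0.15 (SD, n = 6), or 1.26 times A/J (limma adjusted p = 0.0106). The difference, AcB61 minus AcB55, was -0.81 (SE 0.12, limma adjusted p = 0.000604). An exact two-sided permutation of the strain labels gave p = 0.000333, unadjusted. This is the smallest that the 3003 arrangements allow, and it follows from ranges that do not overlap. By limma p-value the difference was rank 33 of the 13045 features.

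Igtp was below A/J in each set of AcB61 arrays, with means of -0.79 on replicates 3, 5 and 7, -0.26 on replicates 2, 6 and 8 and -0.36 on replicates 1 and 4. Without replicates 3, 5 and 7 it still passed in AcB61 (-0.30, limma adjusted p = 0.0025). In AcB55 the call was kept with any 1 AcB55 array left out (limma adjusted p = 0.00998 to 0.0444). It was lost with 4 AcB55 arrays, although the mean stayed above A/J. Without replicates 1 and 2, which read 0.52 and 0.41, the mean was 0.26 (limma adjusted p = 0.123), and without the 2 arrays whose titles end in b it was 0.32 (limma adjusted p = 0.0725). The mean of 4 listed granulocyte genes was also high on AcB55 replicates 1 and 2, at 1.05 and 1.31. On the other 4 AcB55 arrays it was -0.045 to 0.15. Hdc, 1 of the 4, did not share this, with -0.092 to 0.044 over the 6 AcB55 arrays. The part of this list in the Igtp values was not tested.

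Irf1, interferon regulatory factor 1, is a transcription factor that interferon gamma induces and that switches on many of its target genes. It was lower than A/J in both strains. Its lowest, median and highest log2 ratios were -0.71, -0.60 and -0.16 over 7 AcB61 arrays, since replicate 5 had no value, against -1.04, -0.67 and -0.40 over 6 AcB55 arrays. All 13 values were below 0, and 3 of the 7 AcB61 values were above every AcB55 value while the others overlapped. The mean was -0.45 ± 0.25 in AcB61 (SD, n = 7), or 0.733 times A/J (limma adjusted p = 0.000636). In AcB55 it was -0.69 ± 0.21 (SD, n = 6), or 0.620 times A/J (limma adjusted p = 2.3e-05). The difference between the strains did not pass the test (0.24, 95% interval -0.0029 to 0.49, limma adjusted p = 0.185), but it did without AcB61 replicates 2, 6 and 8 (0.40, limma adjusted p = 0.028). Irf1 averaged -0.65 on those 3 arrays and -0.18 on AcB61 replicates 1 and 4, while replicates 3 and 7 read -0.20 and -0.62. Without replicates 2, 6 and 8 its mean in AcB61 was -0.29 (limma adjusted p = 0.0276).

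Stat2 is part of the factor that carries the signal of type I interferons to the nucleus. It was lower than A/J in AcB55. Its lowest, median and highest log2 ratios were -0.17, -0.0014 and 0.061 over the 8 AcB61 arrays, against -0.37, -0.28 and -0.25 over the 6 AcB55 arrays. The AcB61 arrays were evenly placed around 0, with 4 above and 4 below, and all lay above every AcB55 array, as for 1.11% of all features. The mean in AcB61 was -0.019 ± 0.083 (SD, n = 8) and did not pass the test, with a 95% interval of -0.10 to 0.063 and a limma adjusted p of 0.801. In AcB55 it was -0.29 ± 0.045 (SD, n = 6), or 0.818 times A/J (limma adjusted p = 0.000135), with the smallest SD over arrays of the 5 genes. AcB61 minus AcB55 was 0.27 (SE 0.059, limma adjusted p = 0.0075). The exact permutation of strain labels gave p = 0.000333, unadjusted, again the smallest possible, as the ranges did not overlap.

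Bst2, also called tetherin, holds budding virus particles at the cell surface, and in mice it also marks plasmacytoid dendritic cells. It was lower than A/J in AcB55, with lowest, median and highest log2 ratios of -0.62, -0.15 and 0.053 over the 8 AcB61 arrays, against -1.14, -0.65 and -0.47 over the 6 AcB55 arrays. A single AcB61 array, replicate 8, reached into the AcB55 range, and the other 7 lay above it. The mean in AcB61 was -0.19 ± 0.22 (SD, n = 8) and did not pass the test (95% interval -0.35 to -0.037, limma adjusted p = 0.0676). In AcB55 the mean was -0.71 ± 0.23 (SD, n = 6), or 0.611 times A/J (limma adjusted p = 1.23e-05), and all 6 arrays were below 0. AcB61 minus AcB55 was 0.52 (SE 0.11, limma adjusted p = 0.0074), with an unadjusted exact permutation p of 0.002. The AcB61 value stood near the threshold: it passed without AcB61 replicate 1 or 6 or AcB55 replicate 6 (limma adjusted p = 0.0473, 0.0468 and 0.0374). It moved the other way without AcB61 replicate 7 (-0.17, limma adjusted p = 0.149) or 8 (-0.13, limma adjusted p = 0.206), without AcB61 replicates 2, 6 and 8 (-0.13, limma adjusted p = 0.265) and with array weights (-0.12, limma adjusted p = 0.211).

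Ifitm3 sits in endosome membranes and hinders the fusion of entering viruses. Its lowest, median and highest log2 ratios were -0.71, -0.33 and 0.10 over the 8 AcB61 arrays, against -0.33, -0.12 and 0.20 over the 6 AcB55 arrays. The groups overlapped, with 4 AcB61 arrays below every AcB55 array. The mean was -0.30 ± 0.30 in AcB61 (SD, n = 8), or 0.811 times A/J (limma adjusted p = 0.0109). In AcB55 it was -0.11 ± 0.18 (SD, n = 6) and did not pass the test (95% interval -0.30 to 0.089, limma adjusted p = 0.493). The difference between the strains did not pass either (-0.19, 95% interval -0.45 to 0.066, limma adjusted p = 0.329). The sets of AcB61 arrays differed most for this gene. It averaged -0.57 on replicates 3, 5 and 7 and -0.38 on replicates 1 and 4, but 0.012 on replicates 2, 6 and 8. Without replicates 3, 5 and 7 the mean in AcB61 was -0.14 and did not pass (limma adjusted p = 0.217), and the difference between the strains was -0.036 (limma adjusted p = 0.858). Without replicates 2, 6 and 8 the mean in AcB61 was -0.49 (limma adjusted p = 0.000182), and the difference between the strains passed (-0.38, limma adjusted p = 0.0142). The closely related Ifitm2 is the nearest tested gene on 1 side of Ifitm3 on chromosome 7. Its spot averaged 0.014 ± 0.16 in AcB61 (SD, n = 8) and -0.049 in AcB55, and neither value passed the test. Spots of long cDNA can also bind RNA of similar family members, which applies to Ifitm3 and to Igtp and was not tested.

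**Figure D2:**
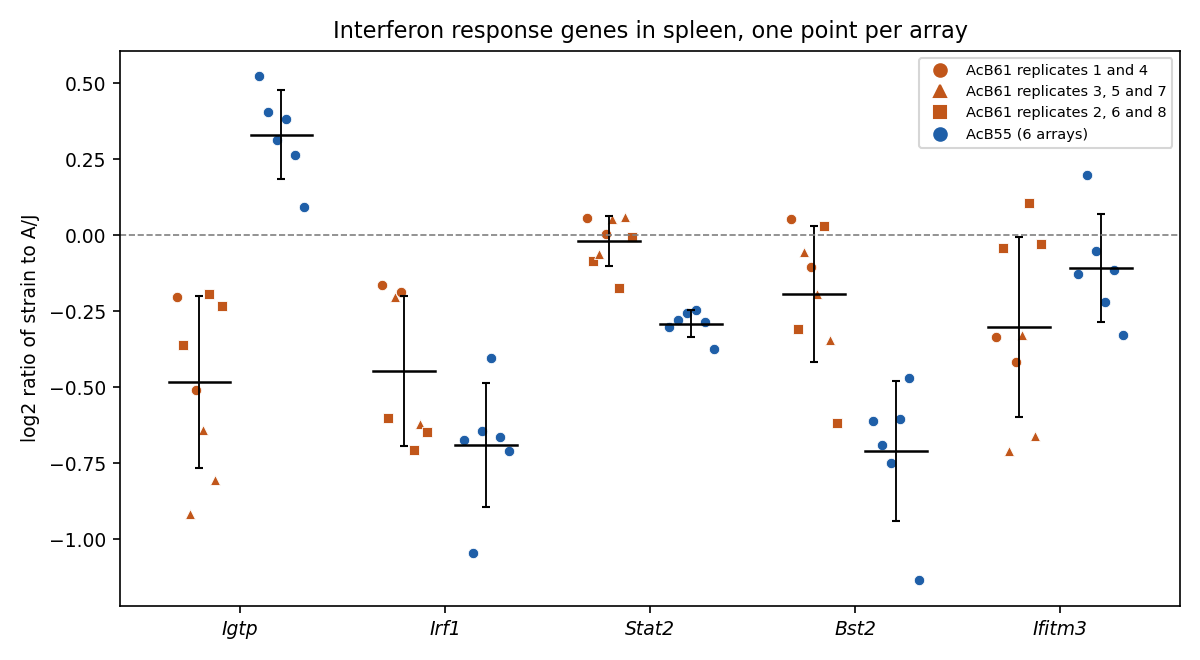
Log2 ratio of strain to A/J (vertical axis) of each gene on each array, AcB61 in orange left of AcB55 in blue, with the mean (bar) and SD (whiskers). Igtp and Stat2 have no overlap between the strains, and the AcB61 triangles (replicates 3, 5 and 7) are the lowest AcB61 points for Igtp, at -0.92 to -0.64.

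Over the 5 genes, 3 were called in AcB61, all lower, where 23.8% of all features were called (13.3% lower). In AcB55 4 were called, 1 higher and 3 lower, where 20.7% of all features were called (9.77% higher and 10.9% lower). Between the strains 3 were called, Stat2 and Bst2 higher and Igtp lower in AcB61, where 12.3% of all features were called (5.29% higher and 6.98% lower). The medians of the 5 log2 values were -0.30 in AcB61 and -0.29 in AcB55, against -0.00067 and -0.0019 over all features. Exact two-sided sign-flip tests against 0, unadjusted, gave p = 0.00781 for Igtp and 0.0156 for Irf1 in AcB61, the smallest that 8 and 7 arrays allow, and 0.0391 for both Bst2 and Ifitm3. In AcB55 the exact test gave p = 0.0312 for Igtp, Irf1, Stat2 and Bst2, the smallest that 6 arrays allow, and 0.219 for Ifitm3. Among the 6286 named genes alone, 1389 were called in AcB61 (836 higher and 553 lower) and 1681 in AcB55 (705 higher and 976 lower). Between the strains 655 of them were called, 427 higher and 228 lower in AcB61. Both strains were set against A/J, so their ratios are not independent of each other. The 5 genes were taken up with earlier results of these data known, and a called share among them describes these genes alone.

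**Figure D3:**
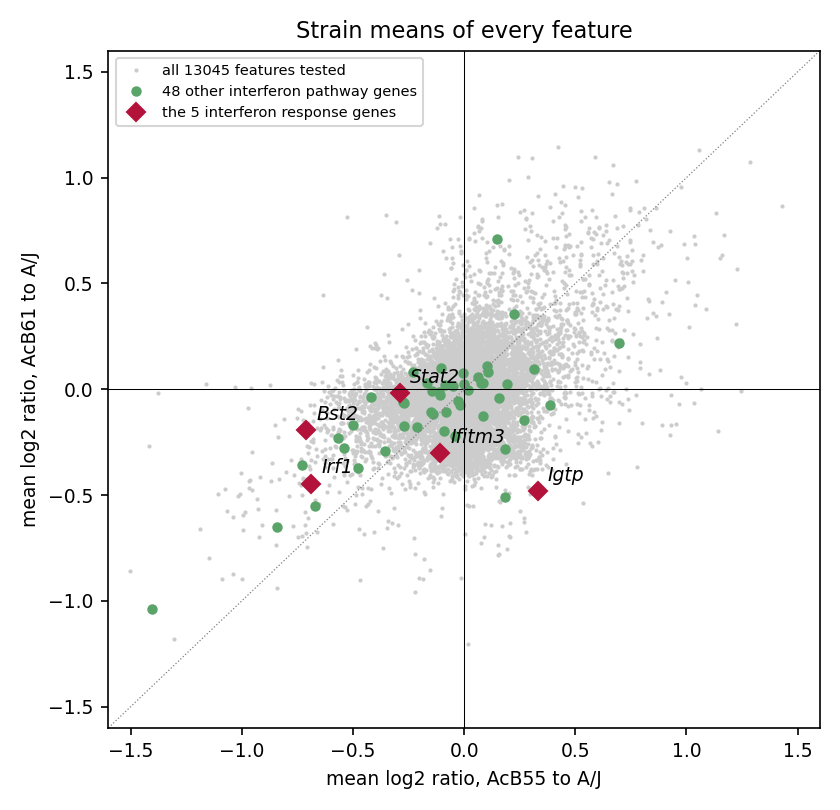
Mean log2 ratio of AcB61 to A/J (vertical) against that of AcB55 to A/J (horizontal) for all 13045 features (grey), 48 other interferon pathway genes (green) and the 5 genes (red), with 2 features beyond the axes at 1.6. Igtp lies at -0.48 on the AcB61 axis and 0.33 on the AcB55 axis, apart from the other 4 genes, which lie at or left of -0.11 on the AcB55 axis.

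Other genes of the interferon pathway were taken from a list of 222 symbols, of which 48 could be tested. Irf9, Irf7 and the interferons themselves were not analysed here. Of the 48 genes, 3 rose and 13 fell in AcB61 and 32 did not pass (median -0.058), where 10.5% of all features rose and 13.3% fell. In AcB55 6 rose, 14 fell and 28 did not pass (median -0.084), where 9.77% of all features rose and 10.9% fell. Without AcB55 replicates 1 and 2, 3 rose and 12 fell in AcB55. Between the strains 6 were higher and 5 lower in AcB61, and 37 did not pass, where 5.29% of all features were higher and 6.98% lower. Their median was 0.051, against 0.012 over all features and 0.045 over the named genes alone. Without AcB55 replicate 4, 5 or 6, or AcB61 replicate 4, 2 were higher and 5 lower in AcB61. Without the arrays marked b 2 were higher and 4 lower. The pathway genes are all named genes. Of the 6286 named genes, 836 rose and 553 fell in AcB61, and 705 rose and 976 fell in AcB55. Between the strains 427 named genes were higher and 228 lower in AcB61. The counts by role below are small and have the same backgrounds. Over all features 23.8% were called in AcB61 and 20.7% in AcB55. Of the 6286 named genes, 1389 were called in AcB61 and 1681 in AcB55.

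Among receptors, kinases and STAT proteins, 1 of 3 fell in AcB61 and 2 of 3 in AcB55. Stat3, which carries signals of interleukins, fell in both strains, with means of -0.37 in AcB61 and -0.48 in AcB55 (limma adjusted p = 0.000958 and 0.000328). Jak1, a kinase bound to interferon receptors, averaged -0.17 in AcB61, which did not pass (limma adjusted p = 0.157), and fell in AcB55 (-0.50, limma adjusted p = 0.000767). Of 3 factors listed with the interferon regulatory factors, Sp100, a protein of nuclear bodies, fell in AcB61 (-0.29) and AcB55 (-0.36), whereas Irf3 and Irf8 did not pass in either strain. Of 5 sensors and adaptors, Myd88, the adaptor of Toll-like receptors, fell in AcB61 (-0.20), and the kinase gene Ikbke fell in both (-0.17 in AcB61 and -0.27 in AcB55). The cytokine Il18, an inducer of interferon gamma, was the 1 inducer tested. It averaged -0.036 in AcB61, which did not pass, and fell in AcB55 (-0.42).

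Of the 3 other genes listed with the GTPases, Gbp8, a guanylate-binding protein, fell in AcB61 (-0.23) and in AcB55 (-0.57). Gbp7 did not pass in either. Irgq averaged -0.15 in AcB61, which did not pass, and rose in AcB55 (0.27), and its difference between the strains did (-0.42, limma adjusted p = 0.023).

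Of 18 genes listed as antiviral effectors, 3 rose and 3 fell in AcB61, and 3 rose and 2 fell in AcB55. Shisa5, a protein of the endoplasmic reticulum, had the lowest values, at -1.04 in AcB61 and -1.40 in AcB55. Samhd1, which depletes deoxynucleotides and so restricts retroviruses, fell as well, at -0.28 in AcB61 and -0.54 in AcB55. Parp12, an ADP-ribosyltransferase, rose in AcB61 (0.22) and in AcB55 (0.69). The exonuclease gene Isg20 rose in AcB61 (0.71), against 0.15 in AcB55, which did not pass.

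Of 8 negative regulators, 1 fell in AcB61, while 3 fell and 1 rose in AcB55. The phosphatase gene Ptpn6 fell in both strains, with -0.55 in AcB61 and -0.67 in AcB55. Socs3 and Cish, which curb Jak and Stat signalling, averaged -0.065 and -0.061 in AcB61, which did not pass, and both fell in AcB55 (-0.27 each). The phosphatase gene Ptpn1 rose in AcB55 (0.16). Of 7 genes listed under antigen processing and class I, 4 fell in AcB61, and 3 fell and 1 rose in AcB55. B2m, the light chain of class I, fell in both, with means of -0.65 in AcB61 and -0.84 in AcB55, and so did Psme1, a proteasome activator, with -0.36 in AcB61 and -0.73 in AcB55. H2-K1, a class I heavy chain, fell in AcB61 (-0.51), against 0.19 in AcB55, which did not pass, and Canx, a chaperone of class I, rose in AcB55 (0.32).

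**Figure D4:**
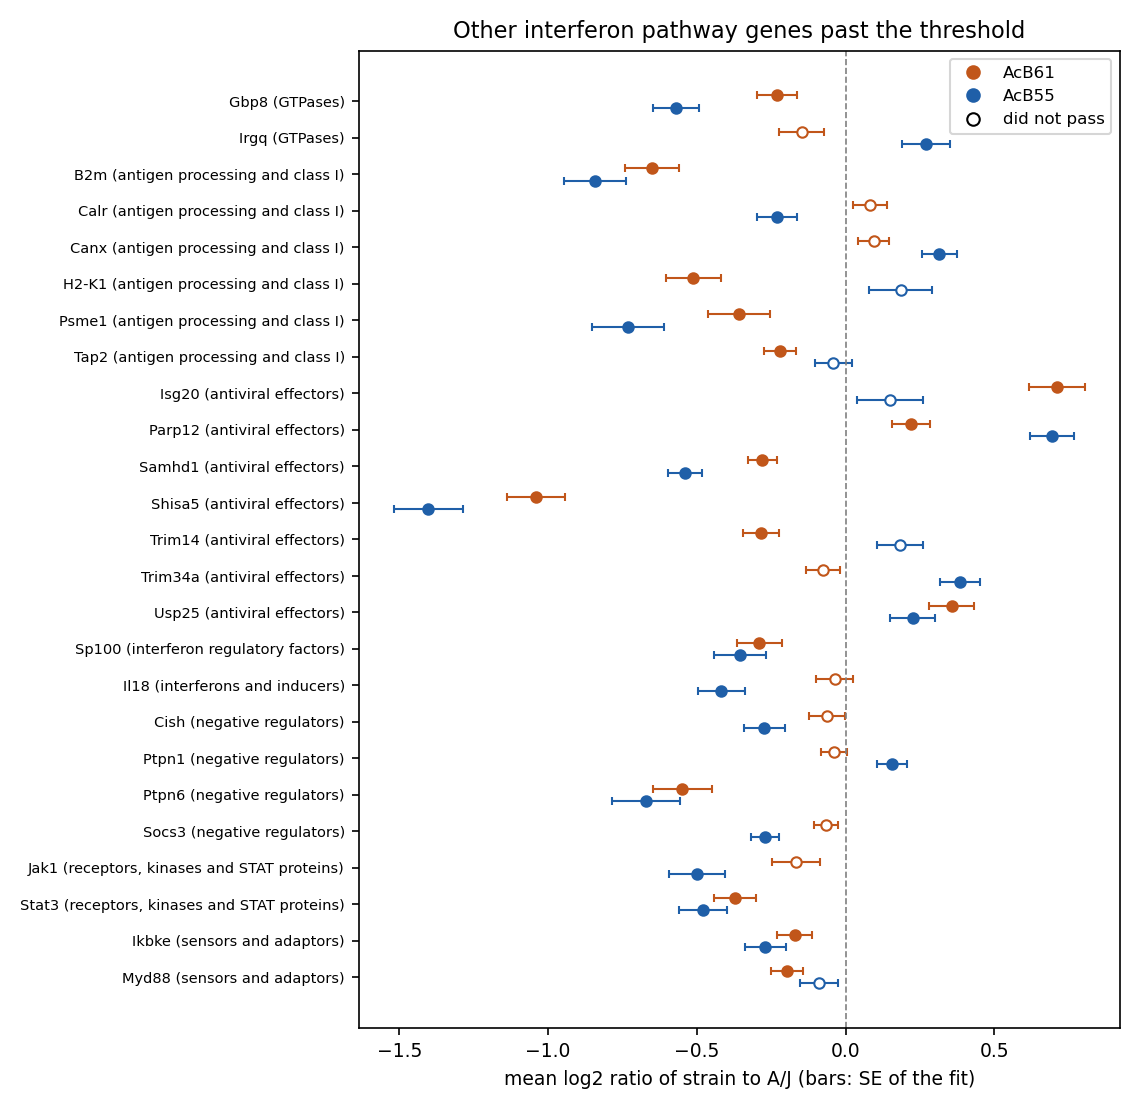
Mean log2 ratio of strain to A/J (horizontal axis, bars are SE of the fit) of the 25 other pathway genes past the threshold in at least 1 comparison, AcB61 in orange above AcB55 in blue, with open circles for values that did not pass. Shisa5 lies lowest in both strains, and Isg20 is the highest in AcB61.

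Markers of several cell types were measured by a few spots each, so the counts below are small. Over all features, 10.5% rose and 13.3% fell in AcB61, and 9.77% rose and 10.9% fell in AcB55. The markers are all named genes. Of the 6286 named genes, 836 rose and 553 fell in AcB61, and 705 rose and 976 fell in AcB55. Of 7 macrophage and monocyte genes, 2 fell in AcB61, and 4 fell and 1 rose in AcB55. Their list means per array were -0.22 to -0.038 in AcB61 and -0.42 to 0.0012 in AcB55. A list mean leaves out genes with no value on that array. Hmox1, the 1 that rose in AcB55 (0.88), had a value on 5 AcB55 arrays only. The AcB55 list means thus do not all hold the same genes, and the lowest is not a measure of all 7. Of 4 genes of dendritic and plasmacytoid cells, only the class II gene H2-Eb1 fell in each strain, and the list means ran from -0.51 to -0.20 in AcB61 and from -0.50 to -0.24 in AcB55. Blnk of B cells, the only gene of its list, fell in both, with a mean of -0.58 in AcB61 and -1.07 in AcB55. Of 16 genes of dividing cells, 15 rose in AcB61 and 14 in AcB55, and of 11 erythroid genes 9 rose in each, with 1 lower in AcB55. The list means of dividing cells were 0.48 to 0.90 in AcB61 and 0.54 to 0.89 in AcB55, and those of erythroid genes 0.58 to 0.76 in AcB61 and 0.43 to 0.74 in AcB55. Of 4 granulocyte genes, 2 rose and 1 fell in AcB61 and 1 rose in AcB55. Of 8 genes of stroma and vessels 6 fell and 1 rose in AcB61 and 7 fell in AcB55, and of 3 plasma cell genes 1 fell in AcB61 and 2 in AcB55. Satb1, the 1 gene of the list for T and NK cells, averaged -0.025 in AcB61, which did not pass, and fell in AcB55 (-0.18). Their part in the values of the 5 interferon response genes was not tested.

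The genes with the most similar pattern were ranked by Pearson's r over the 14 arrays among about 5796 named genes with a value on each, as a description. Igtp was most like Dnajb4 (r = 0.964), Wapl (0.924) and Mab21l3 (0.921), and after subtraction of the strain means these were at 0.876, 0.795 and 0.667. Irf1, over 13 arrays, was most like Gsn (0.873), Fbxl7 (0.848) and Mef2d (0.839), with 0.827, 0.795 and 0.781 after subtraction. Stat2 was most like Ppdpf (0.923), Smarcd1 (0.918) and Fndc3b (0.917), with 0.744, 0.589 and 0.616 after subtraction. Bst2 was most like Ddt (0.948), Aamp (0.918) and Rtcb (0.904), with 0.865, 0.821 and 0.765 after subtraction. Ifitm3 was most like Timp3 (0.896), Pcid2 (0.893) and Timm17a (0.892), and these stayed at 0.931, 0.891 and 0.874. None of these 15 genes belonged to the pathway list. At most 48 of the genes ranked were on that list, so its absence here says little. Among the 5 genes themselves, Igtp and Ifitm3 had the highest r after subtraction of the strain means, 0.80, and Irf1 and Ifitm3 the lowest, -0.61. All these values share the same arrays and the array sets described above.

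Irf1 and Igtp both lie on chromosome 11, Stat2 on 10, Bst2 on 8 and Ifitm3 on 7. Between Irf1 and Igtp 17 named genes were tested, of which 1 was higher and 1 lower in AcB61 minus AcB55. The nearest tested genes beside Igtp, Gemin5 and Zfp692, did not pass in any comparison. Beside Irf1, Rad50, a DNA repair gene, rose in AcB55 (0.28) and was lower in AcB61 minus AcB55 (-0.24), and Slc22a5 did not pass. Of the 20 nearest tested genes of each member, 0 were higher and 1 lower in AcB61 minus AcB55 around Igtp, 1 higher and 1 lower around Irf1, and 3 higher and 1 lower around Stat2. Around Bst2 and around Ifitm3 2 were higher and 0 lower, where 12.3% of all features were called. Beside Stat2, Timeless and Pan2 did not pass. The nearest 20 of Stat2 included Nemp1 (0.024 in AcB61 and -1.16 in AcB55) and Arhgap9 (-0.30 in AcB61 and -0.96 in AcB55), which were chosen after their values were seen. Of the genes beside Bst2, Babam1 did not pass and Zfp882 fell in AcB61 (-0.27), and Ifitm2 and Sigirr beside Ifitm3 did not pass. The segments of C57BL/6 in each strain were not used here.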

How the data were processed

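Per the labels' protocols, spleen RNA was labelled with Cy3 or Cy5, hybridised in pairs, scanned, quantified with QuantArray 3.0 and imported into GeneSpring. The label text breaks off at a dye swap and an intensity step, and for normalization the labels name nothing further. The deposited table holds what was read as a log2 ratio of strain to A/J for 15247 features. Array medians were -0.021 to 0.0087, so no further centring was applied. Each array had 14197 to 14588 values, and the number of arrays limits the precision.

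Gene names came from the platform annotation, and 7849 of the 14612 measured probes had 1 symbol, 356 several and 6407 none. Where a gene had several probes, their mean per array was used. Features with at least 3 arrays per strain were tested with limma 3.58.1 in R 4.3.3 (lmFit with a mean per strain over 14 arrays, eBayes), two-sided. The Benjamini and Hochberg adjustment ran over all 13045 features, and the threshold was 0.05. The code was tested on simulated data. A/J was on every array, and the labels do not say whether arrays shared A/J animals. If they did, the spread between A/J animals is not in the test against 0. Each array counted as a replicate, so p-values measure a spread that may be technical. Exact sign-flip and permutation tests (15 in all) were run on the 5 genes and are unadjusted. Replicates are numbered in order of deposit. Figures used Python 3.11.15 with matplotlib 3.10.9.

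The 5 genes and all lists were chosen with earlier results of these data known. Named are the 5 genes, up to 4 passing pathway genes per role, the 3 most alike genes and the nearest tested gene on each side. Any other gene was named after its values were seen. Gene positions and names are from RefSeq (GRCm38.p6), with identifiers of 7830 probes matched. Alternatives were median centring, scaling, quantile normalization, a stricter filter or none, single probes, array weights and robust eBayes. Others were each strain alone, a block from the first 5 digits of the title numbers, and arrays left out.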

Additional observations from a re-analysis of the deposited data

Results flagged for a closer look

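Of the 5 interferon response genes, 3 differed between the strains by the test of the difference itself, AcB61 minus AcB55, where 12.3% of all features were called. Igtp differed by -0.81, Bst2 by 0.52 and Stat2 by 0.27 on the log2 scale. Of the other pathway genes, 6 were higher in AcB61, namely Isg20 (0.56), Il18 (0.38), Gbp8 (0.34), Calr (0.31), Samhd1 (0.26) and Socs3 (0.21). The 5 that were lower in AcB61 were H2-K1 (-0.70), Parp12 (-0.47), Trim14 (-0.47), Trim34a (-0.46) and Irgq (-0.42). Without AcB55 replicate 4, 5 or 6, or AcB61 replicate 4, the counts were 2 higher and 5 lower. No array of the 5 genes stood apart from its strain by Dixon's test, where the nearest to the limit was Bst2 on AcB55 replicate 6 (-1.14).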

How the results depend on the processing

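No paired analysis was possible because the replicate numbers follow the order of deposit and no label pairs arrays across the strains. Of the values of the 5 genes, only Stat2 in AcB61, which was near 0 and did not pass, changed sign, to at most 0.023 without AcB61 replicates 2, 6 and 8. The decreases of Irf1, Stat2 and Bst2 in AcB55 passed wherever they were tested (limma adjusted p at most 0.00229). Igtp, Stat2 and Bst2 passed between the strains under each alternative fitted to that difference, which the fits of each strain alone do not give. Without AcB61 replicates 2, 6 and 8 all 5 genes passed between the strains, a choice made after seeing the data, and with array weights Irf1 did (limma adjusted p = 0.0474). The decrease of Bst2 in AcB61 passed with quantile normalization (limma adjusted p = 0.0438). It also passed with a random block formed from the first 5 digits of the title numbers (limma adjusted p = 0.0198). That block raised the calls in AcB61 over all features from 3103 to 4103, so this pass is not particular to Bst2. The consensus correlation of that block was -0.141, a single value over all features and both strains. Arrays that share these digits differed in how alike they were. AcB55 replicates 5 and 6 correlated at 0.748, the highest within AcB55, and AcB61 replicates 6 and 7 at 0.064. Every array has its own full title number, and the labels do not say what the digits stand for. With only features measured on every array, Irf1 was not tested. The 11 other pathway genes called between the strains became 17 with array weights and 6 without the arrays marked b, and 7 to 13 with 1 array left out at a time. Over all features, 1601 calls between the strains became 2826 with array weights, 2602 with the block of title digits and 705 without the arrays marked b. They became 2545 without AcB61 replicates 2, 6 and 8, 2781 without AcB61 replicates 3, 5 and 7, and 854 to 1694 with 1 array left out, the lowest being 854 without AcB55 replicate 6 and 924 without replicate 5. The cause was not tested.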
